A study of Mus musculus with 6 samples.

Results

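C1qa, C1qb, C1qc, Fcna, C3, Cfp, C3ar1, C5ar1 and Vsig4 encode components and receptors of the complement system, a set of plasma proteins and cell receptors that tags particles and cells for uptake or lysis. They are 9 of the 23413 genes in the deposited table of the series and were selected by gene symbol, with the earlier result of the comparison described here already known. Their values in F4/80 positive against F4/80 negative libraries are therefore a description and carry no test. Bone marrow of WT mice was sorted into F4/80 positive HSCs and F4/80 negative HSCs (hematopoietic stem cells), and the RNA of 3 samples of each was sequenced, each from 2000 to 5000 cells. F4/80 is a macrophage surface protein encoded by Adgre1. The study is about the receptor c-Kit and about trogocytosis, in which a cell takes up pieces of another cell's membrane. All 6 libraries share the WT genotype, no treatment is named, and the sources used here give neither age nor the other sort markers. It is also not given whether replicates are different animals, so that p-values cover the spread between the sequenced libraries, part or all of which may be technical.

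Complement can be started by C1q, which binds antibody complexes and dying cells through its globular heads, or by lectins such as ficolins, which bind sugars on microbes. Both routes, and an alternative route stabilised by properdin, lead to cleavage of C3, whose fragments coat the target and are read by receptors on phagocytes. Most complement proteins in plasma come from the liver. C1q and ficolin A are unusual in that tissue macrophages, those of marrow and spleen included, are a major source.

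Total counts per library ranged from 18637526 to 21042379. Adgre1 measured 35.9, 39.0 and 21.3 CPM (counts scaled to library size with TMM factors) in positive replicates 1 to 3 and 2.88, 1.42 and 2.62 CPM in negative replicates 1 to 3, which follows the labels of the sort. Kit was abundant in all libraries, at 1207 to 1569 CPM in positive, against 1498 to 1933 CPM in negative libraries. Of the 14451 genes that passed a filter on low counts, edgeR's quasi-likelihood test called 1395 higher and 1572 lower in positive libraries at a Benjamini-Hochberg adjusted p below 0.05. With no composition factor the split was 942 higher and 1970 lower.

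The 3 chains of C1q were more abundant in positive than in negative libraries, with fitted folds of 14.3 for C1qa, 13.8 for C1qb and 12.3 for C1qc, and ficolin A followed them closely. Properdin was also higher, by a smaller factor. C3, the protein on which all routes converge, was low in both groups and varied more between libraries of a group than between the groups. The receptors C3ar1, C5ar1 and Vsig4 were each below 2 CPM in every library. Of the 9 genes, 7 had all 3 positive libraries above all 3 negative libraries, which was also the case for 20.1% of the tested genes. Of the 7 genes that passed the filter on low counts, 5 were called higher (C1qa, C1qb, C1qc, Fcna and Cfp) and 0 lower. Over all tested genes 9.65% were called higher and 10.9% lower. Because the genes were selected with this contrast known, nothing is read from these counts.

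**Figure D1:**
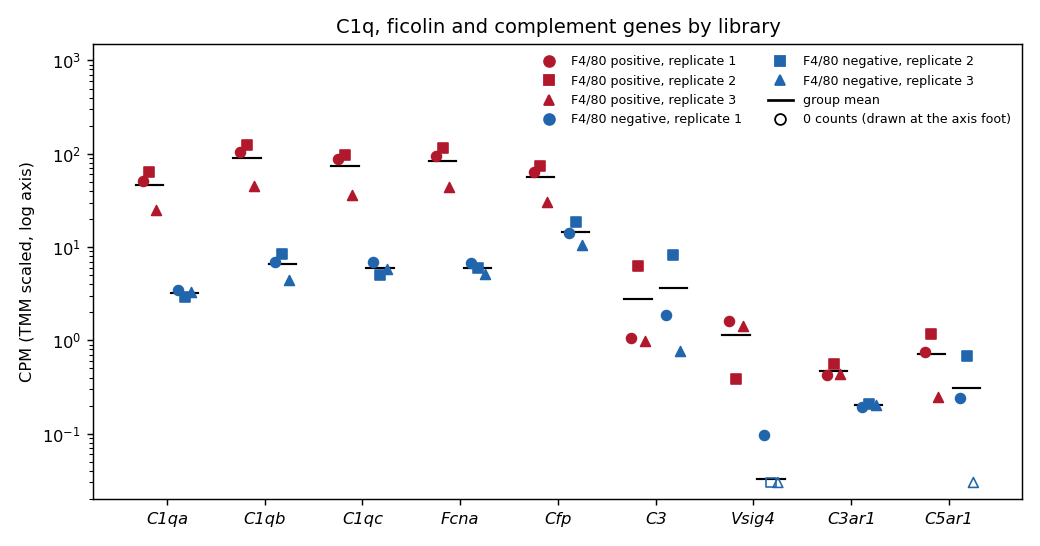
CPM of the 9 genes in each library on a log axis, F4/80 positive left of F4/80 negative within each gene, with symbols for the replicate number and a bar for the group mean. C1qa, C1qb, C1qc, Fcna and Cfp lie higher in all 3 positive libraries, with positive replicate 3 the lowest of its group, while the groups overlap for C3 and C5ar1.

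C1qa, C1qb and C1qc encode the A, B and C chains, which assemble into the C1q molecule through collagen-like stalks. C1qa measured 50.6, 63.6 and 25.2 CPM in positive replicates 1 to 3, against 3.47, 2.94 and 3.34 CPM in negative replicates 1 to 3. The groups did not overlap, and the lowest positive library was several times above the highest negative library. The fitted log2 fold change of C1qa was 3.84 (SE 0.33), or 14.3-fold. C1qb measured 105.2, 122.9 and 44.7 CPM in positive, against 6.89, 8.33 and 4.47 CPM in negative replicates 1 to 3, for which the fitted log2 fold change was 3.79 (SE 0.39). C1qc measured 87.0, 96.1 and 36.0 CPM in positive, against 6.93, 5.03 and 5.75 CPM in negative replicates 1 to 3, for which it was 3.63 (SE 0.36). All 3 chains shared the order of the positive libraries, with replicate 2 highest and replicate 3 lowest. Positive replicate 3 had 0.442 of the mean of positive replicates 1 and 2 for C1qa, 0.392 for C1qb and 0.393 for C1qc. Between libraries of the same replicate number, the difference in log2 CPM of C1qa was 3.83, 4.39 and 2.88 for numbers 1 to 3, smallest for number 3. The difference for number 3 was 3.29 for C1qb and 2.63 for C1qc, again the smallest of each gene. In bulk libraries such as these, fewer cells of a type and less RNA per cell cannot be told apart.

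In the positive libraries these values moved together with those of macrophage markers. Of 20 tested genes in a list of 21 markers of resident macrophages, Adgre1 included, 18 were called higher and 0 lower, with a median log2 fold change of 2.50, against -0.03 over all tested genes. Their summed level was 647 to 1183 CPM in positive, against 186 to 213 CPM in negative libraries. Marco, a scavenger receptor in the list that was too low for the test, had 9, 9 and 1 counts in positive and 0 counts in all 3 negative libraries, and none of the 21 was at 0 across the positive libraries. The list too was lowest in positive replicate 3, at 0.57 of the mean of positive replicates 1 and 2. The summed level of C1qa, C1qb and C1qc, which are not in the list, was set against that of the markers. It equalled 22.3%, 23.9% and 16.4% of the marker sum in positive replicates 1 to 3. In negative replicates 1 to 3 it equalled 8.52%, 7.64% and 7.28%. These ratios did not overlap between the groups. Among the 20 tested marker genes, 4 (Adgre1, Mrc1, Vcam1 and Timd4) had a larger log2 fold change than C1qc, the lowest of the chains. Only Vcam1 (4.00) and Timd4 (4.54) were also above C1qa (3.84), the highest of the chains. At the same time 6 of 10 stem cell markers were called lower and 0 higher, with a summed level of 2622 to 3035 CPM in positive, against 3444 to 4210 CPM in negative libraries. The part that the content of macrophage RNA had in the levels of the complement genes was not tested.

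The C1q genes lie side by side on chromosome 4 on the minus strand, over 18675 bases from 136607440 to 136626114 in the GRCm39 coordinates of the deposited table, in the order C1qb, C1qc and C1qa. All of them are protein-coding and none overlaps another gene of the table. The deposited table holds 2 other genes within 100 kb of the locus, a window chosen after the values had been seen. Ephb2, an ephrin receptor, had 6, 5 and 4 counts in positive and 22, 24 and 24 counts in negative libraries, and fell (log2 fold change -2.14, SE 0.46, edgeR adjusted p = 0.0144). Zbtb40, a zinc finger gene, had 271, 296 and 402 counts in positive and 237, 328 and 247 counts in negative libraries, and did not pass (log2 fold change 0.29, SE 0.20, edgeR adjusted p = 0.331). Both neighbours had log2 fold changes outside the range of those of the C1q genes.

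Per length, the proportions of the chains to one another overlapped between the groups. In the FPKM values of the deposited table, C1qb was 1.99, 1.85 and 1.69 times C1qa in positive replicates 1 to 3 and 1.90, 2.71 and 1.28 times C1qa in negative replicates 1 to 3. C1qc was 0.927, 0.814 and 0.768 times C1qa in positive and 1.08, 0.923 and 0.928 times C1qa in negative libraries. The ratio of C1qb to C1qa was thus spread more widely among negative libraries, where the 3 chains rested on 56 to 159 counts per library, and both ratios overlapped between the groups. Within libraries of the same replicate number, C1qc over C1qa was lower in the positive library in 3 of 3 pairs, and C1qb over C1qa in 1 of 3. Relative to Adgre1, the FPKM of C1qa was 4.38, 5.08 and 3.69 in positive and 3.75, 6.46 and 3.97 in negative libraries, again with overlap.

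Fcna encodes ficolin A, a mouse lectin that starts the lectin route together with the MASP proteases. It lies on chromosome 2 (GRCm39, 25514678 to 25518042, minus strand) and overlaps an antisense gene, Fcnaos, which had 3 to 7 counts in positive and 6 to 10 counts in negative libraries. Whether reads were counted by strand is not given, so a few reads could belong to either gene. Fcna measured 95.6, 114.1 and 43.8 CPM in positive replicates 1 to 3, against 6.69, 5.92 and 5.13 CPM in negative replicates 1 to 3. The groups did not overlap and positive replicate 3 was again the lowest of its group, at 0.417 of the mean of positive replicates 1 and 2. The log2 fold change of Fcna was 3.83 (SE 0.34). Per length, Fcna was 1.43, 1.36 and 1.31 times C1qa in positive and 1.46, 1.53 and 1.16 times C1qa in negative libraries, so that its proportion to C1q overlapped between the groups although the genes lie on different chromosomes.

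Profiles over the 6 libraries were ranked for 11482 genes with a mean log2 CPM of at least 0, other than the C1q genes themselves. Predicted gene models, Rik genes, genes without a symbol and pseudogenes were left out. Among the 11482, Fcna was most like the mean C1q profile, with a root mean square difference of 0.05 in centred log2 CPM. Next came Mrc1, the mannose receptor, with 0.05, Cd5l, a protein secreted by macrophages, with 0.30, Ms4a7, a membrane protein, with 0.31, and Vcam1, an adhesion molecule, with 0.35. Mrc1 measured 54.1, 64.5 and 25.3 CPM in positive, against 4.199, 3.46 and 3.23 CPM in negative libraries, nearly the values of C1qa library by library. Cfp ranked at 42 in this order and C3 at 10116. The measure describes 6 libraries in 2 groups and rewards any gene with the same group difference.

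The promoters of the genes whose levels were apart between the groups and reached more than 10 CPM are shown for their sequence context, from 250 bases before to 50 bases after the start of transcription. The sequences are those of RefSeq on GRCm38.p6, an older build than that of the deposited table, and 8 of the 9 genes matched, all but C1qa. Capitals mark the letters GAGGAA, the core of the purine-rich site bound by the macrophage and myeloid factor PU.1, on either strand (TTCCTC on the other). The intervals are chr4:136886151-136886450 for C1qb, chr4:136892865-136893164 for C1qc, chr2:25627925-25628224 for Fcna and chrX:20931506-20931805 for Cfp, and all 4 genes are on the minus strand.
C1qb: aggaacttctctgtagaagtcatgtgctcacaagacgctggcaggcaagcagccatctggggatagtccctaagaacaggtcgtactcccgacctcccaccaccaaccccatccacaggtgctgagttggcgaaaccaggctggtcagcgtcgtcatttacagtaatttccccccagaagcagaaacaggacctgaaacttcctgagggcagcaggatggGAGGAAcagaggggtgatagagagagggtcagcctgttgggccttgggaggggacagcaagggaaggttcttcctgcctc
C1qc: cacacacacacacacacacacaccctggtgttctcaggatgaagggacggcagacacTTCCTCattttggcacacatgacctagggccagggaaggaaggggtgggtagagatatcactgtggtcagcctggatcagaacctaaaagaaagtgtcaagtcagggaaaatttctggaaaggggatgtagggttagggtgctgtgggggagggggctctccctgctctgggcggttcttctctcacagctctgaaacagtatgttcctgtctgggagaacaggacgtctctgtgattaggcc
Fcna: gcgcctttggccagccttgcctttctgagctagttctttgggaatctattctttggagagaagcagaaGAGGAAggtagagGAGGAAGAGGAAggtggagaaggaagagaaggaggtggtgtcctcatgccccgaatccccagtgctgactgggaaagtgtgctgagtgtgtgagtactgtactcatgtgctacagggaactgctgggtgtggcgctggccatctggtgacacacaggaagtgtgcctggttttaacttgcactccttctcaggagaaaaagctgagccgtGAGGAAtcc
Cfp: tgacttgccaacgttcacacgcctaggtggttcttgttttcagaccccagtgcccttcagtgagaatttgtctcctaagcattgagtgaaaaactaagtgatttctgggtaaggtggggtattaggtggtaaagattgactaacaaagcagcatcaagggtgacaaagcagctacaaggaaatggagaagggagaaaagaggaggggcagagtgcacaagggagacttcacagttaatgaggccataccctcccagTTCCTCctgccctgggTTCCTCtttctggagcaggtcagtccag

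GAGGAA occurred in 5 of the 8 promoters and in 28.3% of all 32851 promoters of this length. Fcna held 4 copies, a number reached by 0.125% of all promoters, Cfp and Vsig4 held 2 each, and C1qb and C1qc held 1 each. A match is a string of letters and was not tested for binding.

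Cfp encodes properdin, the plasma protein that stabilises the C3 convertase of the alternative route and is made by neutrophils, monocytes and macrophages. It lies on chromosome X (GRCm39, 20791693 to 20797794, minus strand). Cfp measured 63.6, 73.5 and 30.5 CPM in positive replicates 1 to 3, against 14.3, 18.8 and 10.6 CPM in negative replicates 1 to 3. The groups did not overlap, and in both groups replicate 2 was the highest and replicate 3 the lowest. The log2 fold change of Cfp was 1.94 (SE 0.33), or 3.83-fold, a smaller factor than for C1q. The proportion of properdin to C1q was therefore not kept. Per length, Cfp was 0.754, 0.692 and 0.723 times C1qa in positive and 2.47, 3.83 and 1.91 times C1qa in negative libraries, with no overlap. Relative to the summed macrophage markers, a list without Cfp, Cfp was at 5.85%, 6.21% and 4.71% in positive libraries. In negative libraries it was at 7.05%, 8.80% and 5.71%. These ratios overlapped between the groups and were lower in the positive library in 3 of 3 pairs of the same replicate number.

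**Figure D2:**
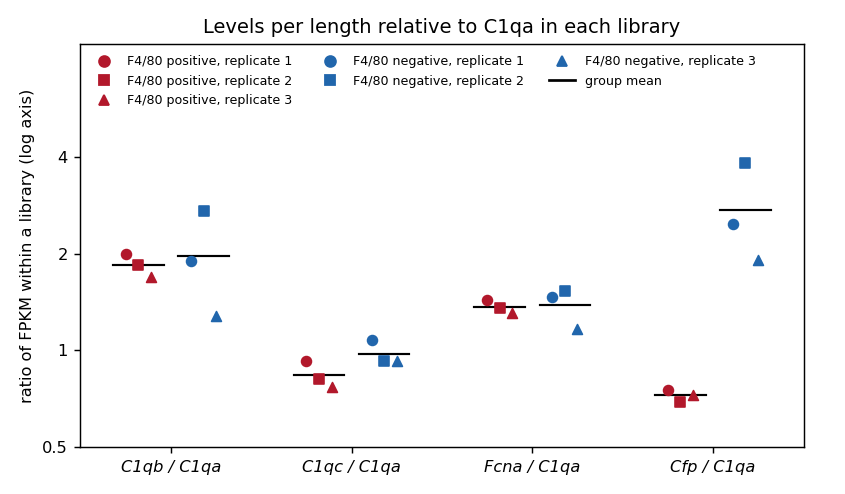
Ratio of the FPKM of C1qb, C1qc, Fcna and Cfp to that of C1qa within each library on a log axis, F4/80 positive left of F4/80 negative, with a bar for the group mean. The ratios of C1qb, C1qc and Fcna overlap between the groups, whereas Cfp lies below C1qa in all 3 positive libraries and above it in all 3 negative libraries.

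C3 is cut by the convertases of every route into C3b, which binds covalently to targets, and the small peptide C3a. It measured 1.07, 6.29 and 0.979 CPM in positive replicates 1 to 3, against 1.86, 8.18 and 0.770 CPM in negative replicates 1 to 3. Replicate 2 was the highest library in both groups and the groups overlapped. The log2 fold change of C3 was -0.38 (SE 0.92). It was 1.07 without negative replicate 2, 0.01 without positive replicate 1 and 0.04 without positive replicate 3, so that leaving out any of these 3 libraries turned its sign, and -1.80 without positive replicate 2. Of 10 neutrophil markers, 7 were likewise highest in replicate 2 of both groups, and 3 (Ly6g, Mmp8 and Mpo) were not. This order was not particular to neutrophil markers. The summed markers of macrophages, monocytes, dendritic cells and B cells were also highest in replicate 2 of both groups. Those of T and NK cells, megakaryocytes and platelets, erythroid cells, endothelial and stromal cells, and stem cells were not. From replicate 1 to 2, macrophage markers went from 1089 to 1183 CPM in positive and 203 to 213 CPM in negative libraries. Monocyte markers went from 480 to 565 and 484 to 623 CPM, and dendritic cell markers from 56.2 to 57.3 and 85.6 to 88.9 CPM. B cell markers went from 51.6 to 78.9 and 88.6 to 108.3 CPM. In proportion, all these steps were smaller than those of C3. The neutrophil list of 10 genes, of which 0 of 9 tested were called in either direction, summed to 375, 487.5 and 361.7 CPM in positive, against 289.8, 899.1 and 132.3 CPM in negative replicates 1 to 3. Most of that sum was Mpo, a granule enzyme also made by early myeloid progenitors, at 298.4, 237.1 and 321.7 CPM in positive, against 127.1, 466.1 and 104 CPM in negative libraries. Without Mpo and Elane, the list summed to 62.4, 229.2 and 20.3 CPM in positive, against 152, 319 and 2.31 CPM in negative libraries. None of the 10 was at 0 across a whole group. Fcnb, the ficolin of neutrophil granules, had 2, 51 and 3 counts in positive and 8, 126 and 0 counts in negative libraries, and was too low for the test. S100a8, a calcium-binding protein abundant in neutrophils and an example picked after its values were seen, measured 15.3, 46.4 and 4.89 CPM in positive, against 28.1, 65.2 and 0.513 CPM in negative libraries. The part of neutrophil RNA in the level of C3 was not tested.

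**Figure D3:**
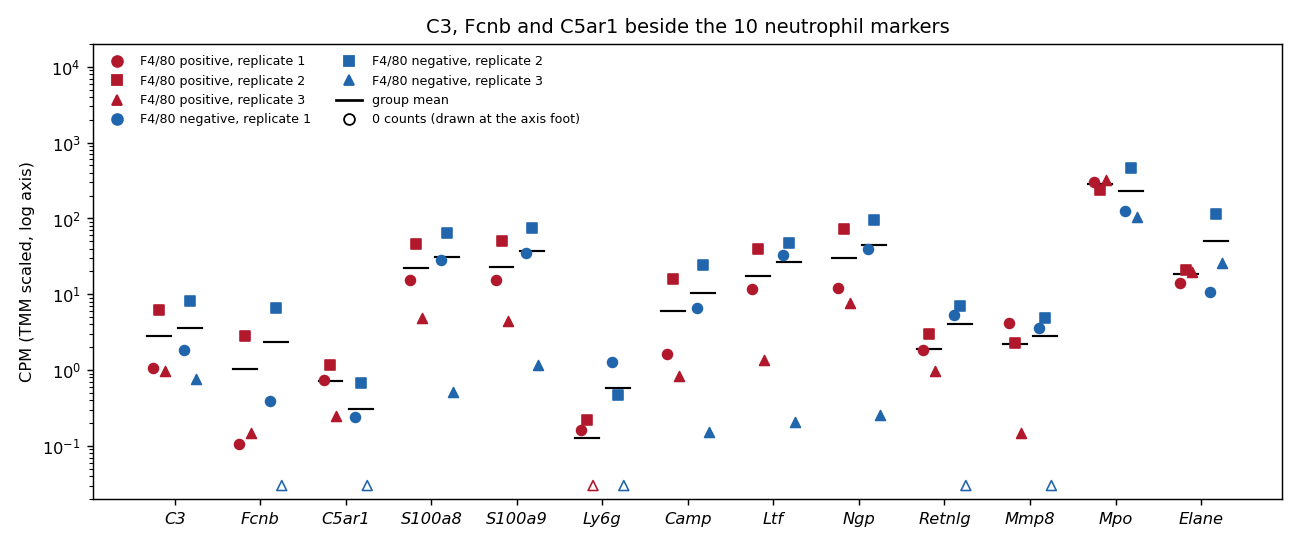
CPM of C3, Fcnb and C5ar1 beside all 10 genes of the neutrophil list in each library on a log axis, F4/80 positive left of F4/80 negative, with a bar for the group mean and open symbols for 0 counts. Replicate 2 is the highest library of both groups for C3, Fcnb, C5ar1 and 7 of the 10 markers, the exceptions being Ly6g, Mmp8 and Mpo, and the groups overlap for every gene drawn.

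C3ar1 and C5ar1 encode the receptors for C3a and C5a, the peptides that call in and activate myeloid cells, and Vsig4 encodes a receptor for C3b fragments on resident macrophages. A count of 3, taken as the floor, corresponds to 0.1465 to 0.1669 CPM. C3ar1 had 8, 10 and 9 counts in positive and 4, 4 and 4 counts in negative libraries, just above that floor. The groups did not overlap, and over each group the ratio was 2.33 (exact 95% interval 1.14 to 5.04, counting error only). In the fit without the filter, the log2 fold change of C3ar1 was 1.21 (SE 0.79). C5ar1 had 14, 21 and 5 counts in positive and 5, 13 and 0 counts in negative libraries. The groups overlapped and, as for C3, replicate 2 was the highest of both groups. The log2 fold change of C5ar1 was 1.204 (SE 0.95), and 2.48 without negative replicate 2. Vsig4 had 30, 7 and 29 counts in positive and 2, 0 and 0 counts in negative libraries. The groups did not overlap. Unlike the C1q genes, Vsig4 was lowest in positive replicate 2, and positive replicate 3 was near positive replicate 1. Over each group the ratio of Vsig4 was 34.1 (exact 95% interval 9.08 to 288, counting error only), a wide range because it rests on 2 negative counts. C3ar1 and Vsig4 did not pass the filter on low counts.

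Ordered per length, C1qb led in positive libraries with 83.3 ± 37.2 FPKM, followed by Fcna with 61.3 ± 26.2, C1qa with 44.5 ± 18.5, C1qc with 37.7 ± 16.6 and Cfp with 32.1 ± 12.8 FPKM (SD, n = 3). The ranges of these 5 overlapped from each to the next, yet each was above the next in all 3 positive libraries. Vsig4 with 0.767 ± 0.443, C3 with 0.537 ± 0.585, C5ar1 with 0.279 ± 0.178 and C3ar1 with 0.110 ± 0.016 FPKM came far below and did not differ from their neighbours beyond their spread. In negative libraries Cfp led with 8.31 ± 2.37 FPKM, followed by C1qb with 5.97 ± 1.80, Fcna with 4.26 ± 0.55, C1qa with 3.09 ± 0.25 and C1qc with 3.03 ± 0.48 FPKM (SD, n = 3). Of these, Fcna and C1qa did not overlap, while the ranges of C1qa and C1qc did. C3 followed with 0.696 ± 0.776 FPKM, and the 3 receptors were at or below 0.119 FPKM on average. The order thus differed between the groups in the places of Cfp and Vsig4.

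Most other tested genes of the complement system did not pass the test in either direction. A list of 53 further complement genes, by their role in starting the cascade, in its terminal steps, in its control or as receptors, had 34 in the table and 21 past the filter on low counts. Of these 21, 2 rose (9.52%) and 3 fell (14.3%), shares near the 9.65% and 10.9% of all tested genes, with a median log2 fold change of -0.03 in the list and in all tested genes. The remaining 19 of the 53 genes, among them Masp1, Cfb, Cfd and Cfi, are not analysed here.

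**Figure D4:**
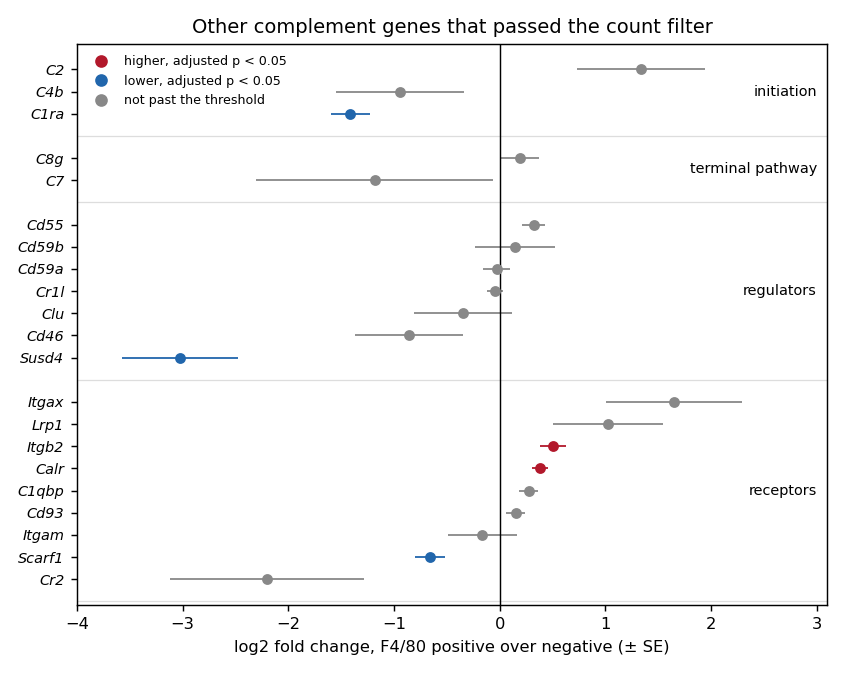
Log2 fold change of F4/80 positive over F4/80 negative libraries for the 21 other complement genes that passed the filter, grouped by role, with bars for the standard error. Itgb2 and Calr are the 2 genes that rose, and C1ra, Susd4 and Scarf1 the 3 that fell.

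Among genes that start the cascade, C1ra fell. It encodes the protease C1r, which C1q activates, and C1r in turn cuts C1s. C1ra measured 15.1, 17.7 and 20.3 CPM in positive, against 37.6, 46.7 and 57.3 CPM in negative replicates 1 to 3. All 3 positive libraries were below all 3 negative libraries, in the opposite direction to the C1q genes. The log2 fold change of C1ra was -1.41 (SE 0.18, edgeR adjusted p = 0.00178), or 2.66-fold lower, and it was called under all 13 alternatives. Its close paralog C1rb had 0, 0 and 2 counts in positive and 3, 2 and 8 counts in negative libraries, and the split of reads between the paralogs is uncertain. C1s1, for the protease C1s, had 1, 0 and 0 counts in positive and 0, 5 and 0 counts in negative libraries. C4b, which C1s cleaves, measured 1.45, 1.34 and 3.67 CPM in positive, against 2.002, 2.46 and 8.01 CPM in negative libraries and did not pass (log2 fold change -0.94, SE 0.61, edgeR adjusted p = 0.302). Its log2 fold change was -0.04 without negative replicate 3 and -1.57 without positive replicate 3. C2, its partner in the C3 convertase, had 20, 15 and 12 counts in positive and 2, 8 and 9 counts in negative libraries and did not pass (log2 fold change 1.34, SE 0.61, edgeR adjusted p = 0.151). Masp2 had at most 2 counts in any library. The transcripts for the C1q subunits were thus plentiful in positive libraries while those of C1s1 were at or near the floor in both groups. C1s2 is among the listed genes that are not analysed here.

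In the terminal pathway, which builds the membrane pore, 2 of 5 listed genes in the table passed the filter and none of them passed the test. C8g, a chain of C8, measured 8.56 ± 0.47 CPM in positive, against 7.48 ± 0.62 CPM in negative libraries (SD, n = 3 each). Hc, the gene for C5, had 0 counts in all positive libraries and 2 in negative replicate 3.

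Of the regulators that protect cells from complement, 7 passed the filter, of which 1 fell and 0 rose. Cr1l, the mouse membrane regulator Crry, measured 142.4 ± 5.4 CPM in positive, against 146.9 ± 7.0 CPM in negative libraries (SD, n = 3 each), a log2 fold change of -0.04 (SE 0.08). Cd59a, which blocks the pore, measured 25.2 ± 1.5 CPM in positive, against 25.8 ± 2.1 CPM in negative libraries (SD, n = 3 each). Cd55, which speeds the decay of convertases, measured 51.6 ± 4.3 CPM in positive, against 41.2 ± 3.0 CPM in negative libraries (SD, n = 3 each), but did not pass (log2 fold change 0.32, SE 0.11, edgeR adjusted p = 0.0655, range over alternatives 0.0415 to 0.191, called by DESeq2 alone). These 3 membrane regulators were expressed well above the floor in both groups. Cd46 measured 0.911, 0.779 and 0.440 CPM in positive, against 1.07, 0.786 and 2.002 CPM in negative libraries and did not pass.

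Susd4, a membrane regulator of the convertases, was the regulator that fell. It measured 0.375, 0.501 and 0.147 CPM in positive, against 4.00, 1.68 and 2.67 CPM in negative libraries, with no overlap, and a log2 fold change of -3.02 (SE 0.55, edgeR adjusted p = 0.00706). Serping1, the C1 inhibitor, had 4, 1 and 4 counts in positive and 41, 23 and 4 counts in negative libraries. It was below the filter, the groups overlapped through negative replicate 3, and the edgeR adjusted p with no filter was 0.0487 (0.0214 to 0.159 over the alternatives that kept it, the lowest without negative replicate 3).

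Of 9 tested receptors and C1q-binding proteins, 2 rose and 1 fell. Calr, the endoplasmic reticulum chaperone calreticulin, which can bind C1q stalks at the cell surface, measured 849.7, 940.3 and 937 CPM in positive, against 669, 750.5 and 676 CPM in negative replicates 1 to 3. The groups did not overlap and Calr rose 1.30-fold (log2 fold change 0.38, SE 0.07, edgeR adjusted p = 0.00914). For Itgb2, which encodes the beta chain that the complement receptors CR3 and CR4 share, there were 2708, 2897 and 2914 counts in positive and 2049, 2383 and 1786 counts in negative libraries, with no overlap. It rose 1.42-fold (edgeR adjusted p = 0.0227), a call lost when any library except negative replicate 2 was left out (edgeR adjusted p = 0.0552 to 0.0771, with 0.00118 the lowest of all alternatives). Its alpha chain partners did not pass. Itgam measured 4.29, 4.95 and 3.18 CPM in positive, against 4.44, 6.39 and 3.08 CPM in negative libraries, and Itgax had 17, 22 and 19 counts in positive and 9, 9 and 1 counts in negative libraries (log2 fold change 1.65, SE 0.65, edgeR adjusted p = 0.103).

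Scarf1, a scavenger receptor that binds C1q on dying cells, fell. It measured 112.4, 121.4 and 125.3 CPM in positive, against 155.5, 179.2 and 233.9 CPM in negative libraries, with a log2 fold change of -0.66 (SE 0.14, edgeR adjusted p = 0.0137). Its call was lost without positive replicate 1 (edgeR adjusted p = 0.0573), and its adjusted p otherwise reached down to 0.00012. Cd93, a C-type lectin-like receptor of stem and endothelial cells, measured 137.4 ± 9.9 CPM in positive, against 123.9 ± 7.7 CPM in negative libraries (SD, n = 3 each) and did not pass. C1qbp, a mitochondrial protein first isolated by its binding to C1q, had a log2 fold change of 0.27 (SE 0.09). It did not pass (edgeR adjusted p = 0.0634), and it was called with the replicate number as a block (edgeR adjusted p = 0.0151), with DESeq2 and without negative replicate 2. Its highest adjusted p among the alternatives was 0.184. Cr2, the receptor of B cells for C3 fragments, had 31, 8 and 0 counts in positive and 48, 44 and 98 counts in negative libraries (log2 fold change -2.20, SE 0.92, edgeR adjusted p = 0.122), and a log2 fold change of -3.87 without positive replicate 1 and -1.60 without positive replicate 3. C5ar2, a second receptor for C5a, had 6, 0 and 0 counts in positive and 35, 0 and 37 counts in negative libraries.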

How the data were processed

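RNA was extracted and sequenced from 6 sorted samples, and 1 table covers them all. Counts per gene are as deposited by the authors. FPKM are also as deposited, per the file headers, and were used here only to set levels of different genes side by side. The labels' protocols name a SMARTer stranded kit. HISAT2 2.0.5, DESeq2 and GRCm39 appear in the submitters' processing notes. For the read counter, the annotation release and strand, the sources used here are silent.

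Positive libraries were set against negative ones with edgeR 4.0.16 under R 4.3.3 (filterByExpr, minimum count 10, minimum total 15; TMM; quasi-likelihood test, no covariates), with adjusted p over the 14451 tested genes. For genes below the filter the fit without it was used. The edgeR step was tested on simulated data. Log2 CPM used a prior count of 2. Intervals of count ratios are exact binomial and cover counting error only. No library was a near copy of another of its group (chi-square per degree of freedom 11.0 to 22.9).

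The members, lists and alternatives were chosen with earlier results of these data known. The named genes are the 9 members, complement genes that were called or are defining for their route, 5 genes of most similar profile, and defining markers; C1rb, C8g, C1qbp, Lrp1, Emilin1, Ephb2 and Zbtb40 were named after their values were seen. Same-numbered libraries deviated together from their group means (r = 0.214 to 0.284 over genes), every pair above 0.1. The labels number both groups 4, 5 and 7. The numbers were therefore taken to pair the libraries in comparisons by replicate number and in the replicate block. The main fit did not use this pairing. Calls and adjusted p come from the main fit unless another setting is named. Alternatives were another normalization, other filters, DESeq2 1.42.0, limma-voom (limma 3.58.1), the replicate block and leaving out each library. A few results are not reported here.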

Additional observations from a re-analysis of the deposited data

How the results depend on the processing

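With the replicate number as a block, edgeR called 2105 genes higher and 2429 lower of all tested genes, and 4 other complement genes higher. DESeq2 also called 4 other complement genes higher. Leaving out 1 library at a time gave 656 to 1437 genes higher and 802 to 1612 lower, and 1 to 3 other complement genes higher and 2 to 4 lower. The block changed no other count by more than 1.5 times, and among the named genes it changed the call of Kit (edgeR adjusted p = 0.00415, against 0.159 without it and up to 0.44 in the alternatives) and brought in C1qbp (0.0151) and Lrp1, an endocytic receptor (0.0376, and up to 0.594 in the alternatives). The log2 fold changes of the members ranged over the alternatives from 3.55 to 4.14 for C1qa, 3.52 to 4.12 for C1qb, 3.38 to 3.96 for C1qc, 3.56 to 4.15 for Fcna and 1.70 to 2.24 for Cfp, all positive. That of C3 ranged from -1.80 to 1.07 and changed sign in 3 of 12 alternatives. That of C5ar1 ranged from 0.63 to 2.48. The cause was not tested. Vsig4 and C3ar1 rest on few counts. Their intervals cover counting error only and leave out the spread between libraries. The smallest difference detectable in these receptors at this depth was not tested.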

Other observations

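Proteins outside the complement system carry the globular domain of C1q, and a list of 26 such relatives had 19 genes in the table and 9 past the filter on low counts, of which 1 rose and 2 fell. C1qtnf12, a secreted relative of adiponectin, measured 40.3, 54.2 and 37.3 CPM in positive, against 77.3, 75.4 and 66.0 CPM in negative replicates 1 to 3. It fell (log2 fold change -0.73, SE 0.15, edgeR adjusted p = 0.0111), a call lost without positive replicate 1 (0.0505) or positive replicate 3 (0.0506), with 6.84e-05 the lowest of its alternatives. C1qtnf4 had 2, 11 and 5 counts in positive and 29, 30 and 30 counts in negative libraries and fell (log2 fold change -2.22, SE 0.58, edgeR adjusted p = 0.0302), a call lost when any library except positive replicate 2 was left out (edgeR adjusted p = 0.0609 to 0.111). Its log2 fold change was -3.04 without positive replicate 2. Emilin2, an extracellular matrix glycoprotein, measured 106.1, 97.1 and 122.4 CPM in positive, against 83.5, 67.9 and 44.2 CPM in negative libraries and rose (log2 fold change 0.74, SE 0.21, edgeR adjusted p = 0.0375). Its adjusted p was 0.0518 with no composition factor and 0.0503 to 0.123 when a library other than negative replicate 1 was left out. Emilin1, a related glycoprotein, was abundant in both groups, at 403.7 ± 27.8 CPM in positive, against 362.1 ± 23.1 CPM in negative libraries (SD, n = 3 each), and did not pass.

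Markers of other cell types with a place in marrow were also read. Monocyte markers, of which Lyz2 made up most, summed to 475 to 565 CPM in positive, against 484 to 623 CPM in negative libraries, with 0 of 8 tested genes called. Without Lyz2 they summed to 18.2 to 47.7 CPM in positive, against 22.6 to 96.9 CPM in negative libraries. Of 8 megakaryocyte and platelet markers 6 rose and 1 fell, with a summed level of 2045 to 2571 CPM in positive, against 1539 to 1790 CPM in negative libraries, and positive replicate 3, the lowest positive library for C1q, was the highest for these. Of 7 tested B cell markers none passed, with 51.6 to 78.9 CPM in positive, against 59.0 to 108.3 CPM in negative libraries. Of 9 erythroid markers 1 fell, with 131.8 to 170.5 CPM in positive, against 91.0 to 185 CPM in negative libraries. Of 4 tested dendritic cell markers 2 fell, with 48.9 to 57.3 CPM in positive, against 73.3 to 88.9 CPM in negative libraries, and Cd209a was at 0 in all positive libraries. Of 2 tested T and NK cell markers Nkg7 rose, at 291.6 to 301 CPM in positive, against 92.5 to 147.7 CPM in negative libraries, and Klrb1c fell. Without Nkg7 the list summed to 0.75 to 2.11 CPM in positive, against 5.76 to 10.3 CPM in negative libraries, and Cd3e, Cd3d, Cd3g and Cd8a had 0 counts in all positive libraries. Of 5 tested endothelial and stromal markers 1 rose, Pdgfrb. The whole list summed to 158.2 to 186.3 CPM in positive, against 144.2 to 163 CPM in negative libraries. Cdh5, Lepr and Pdgfra had 0 counts in all positive libraries.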
